A study of Mus musculus with 24 samples.

Results

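Livers of mice fasted for 24 hours were compared with livers of mice that ate chow and drank 20% glucose for 24 hours, the 2 nutritional extremes of a study with 4 groups. The comparison used the 12 arrays titled as fasted or as fed high glucose, 6 of each, out of 24 in all. All mice were wild-type C57Bl/6J males, 8 weeks old and raised on chow, and every liver was taken at ZT16, the Zeitgeber hour counted from lights on. The fasted group had no food for 24 hours, the glucose group had chow freely with 20% glucose added to its tap water, and a water group, used here as a reference point, had chow and plain tap water. The remaining group drank 20% fructose and entered the estimate of the spread. Each array came from the whole liver RNA of a single mouse, so the spread between arrays includes that between mice.

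As background, the liver stores and converts sugar after a meal and exports fuel when food is absent. In the fed liver insulin and sugar metabolites act through SREBP-1c and ChREBP, transcription factors that turn on glycolysis and the synthesis of fatty acids. In the fasted liver glucagon, glucocorticoids and fatty acids released from adipose tissue act through CREB, FOXO1, the glucocorticoid receptor and PPARA, which turn on gluconeogenesis, amino acid breakdown, fatty acid oxidation and ketone production. Cells that lack amino acids, or whose endoplasmic reticulum holds unfolded protein, raise further programmes through ATF4, ATF6 and XBP1.

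Levels are log2 intensities relative to the 75th percentile of the probes of the same array, so a level of 0 is that percentile, and a difference of 1 is a factor of 2. Differences are fasted minus glucose unless another contrast is named. Levels are comparable between mice for a given gene, not between genes. The scanner software found 33763 to 35378 probes well above background on the fasted arrays and 33683 to 35581 on the glucose arrays. Across genes, arrays correlated at 0.985 or more within the fasted group, at 0.991 or more within the glucose group, and at 0.971 to 0.979 between the groups. Over the 12 arrays a principal component analysis placed 56.3% of the variance on its leading axis, with the fasted arrays at 43.2 to 61.5 and the glucose arrays at -54.7 to -49.2. The fasted library of replicate 2 stood apart from the other fasted arrays. It gave the extreme value in 972 of the 1844 genes in which 1 fasted array was set off from the other 5 (Dixon's gap test at the 95% level, gene by gene), and 736 of these values were the lowest. Without it, 5455 genes were higher and 5234 lower in the fasted mice, and differences without it are given for the genes in which it was set off.

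Counts of cell type markers called (adjusted p under 0.05) stand against 22.6% of all genes called higher and 21.9% called lower in the fasted mice. Of 9 hepatocyte markers measured, among them albumin and transthyretin, 6 were not called, 2 were higher and 1 lower, with a median of 0.04. The mean level of the 9 was 9.29 to 9.47 in the fasted and 9.12 to 9.25 in the glucose mice. The 1 member at least 2-fold higher was Cps1, a urea cycle gene, which adds to this gap. Kupffer cell markers gave 2 of 11 higher, Marco at 0.90 and Vsig4 at 0.42, none lower and 9 not called, with a median of 0.03. Among those not called, Clec4f was called lower, at -0.31, only when arrays were weighted. Of 11 stellate cell markers 5 were lower in the fasted mice, with Col3a1 at -1.96 and Lrat, which makes the retinyl esters these cells store, at -1.13, and 1 was higher. Cholangiocyte markers gave 4 of 8 lower and 1 higher, endothelial markers 4 of 11 higher and 3 lower, and lymphocyte markers 1 of 10 higher and 2 lower. In bulk liver RNA, fewer cells of a type and less RNA per cell cannot be told apart. The neutrophil marker mean spanned -1.73 to 2.07 over the fasted mice against -1.44 to -0.31 over the glucose mice. Of 6 neutrophil markers 1 was lower, Ly6g at -0.33, and 1 higher, Retnlg at 2.52, with 2 of 6 glucose arrays above background and overlapping groups, a call that was lost without fasted replicate 2 or 4 or glucose replicate 2 or 5 (adjusted p up to 0.0725). For red cells 1 of 6 markers was lower, for skeletal muscle 1 of 5 and for pancreatic acinar cells 2 of 4, and none was higher.

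The difference between the extremes was broad. Of 23966 genes tested, 5426 were higher and 5260 lower in the fasted mice (limma on all 24 arrays, Benjamini-Hochberg adjusted p under 0.05), which is 44.6% of all genes, 22.6% higher and 21.9% lower. A difference of at least 2-fold was reached by 1061 of the higher and 975 of the lower genes, and of at least 4-fold by 255 and 207. In 6194 genes, 25.8% of all, the 6 fasted and 6 glucose values did not overlap. The median difference over all genes was 0.02, and scaling each array to its own percentile holds this median near 0. Of the 10686 called genes, 10467 had the same sign within each of the 3 slides, which carried 2 arrays of each group. With 2 mice a group, slide 1 alone called 2689 genes higher and 2436 lower, slide 2 called 2165 and 2257, and slide 3 called 2276 and 1871. With calls this frequent, a gene list with a mixture of higher and lower members near these shares looks like any other set of genes.

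**Figure D1:**
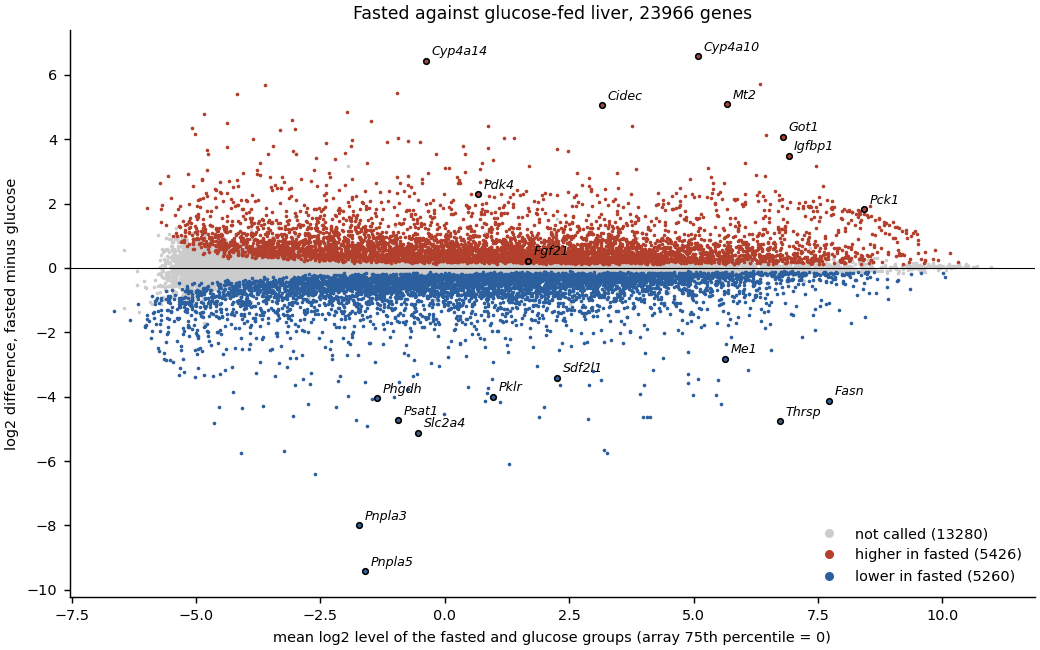
Each point is 1 of 23966 genes, with its mean log2 level over the fasted and glucose groups on the x axis and the log2 difference, fasted minus glucose, on the y axis; red genes were called higher in the fasted mice, blue genes lower and grey genes were not called. Calls run through the whole range of levels, with Cyp4a10 at 6.59 near the top and Fgf21 near 0. Genes dim in 1 group, such as Pnpla5, are plotted at their measured means, where only a bound on the fold holds.

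Among the largest rises the fatty acid hydroxylases of the Cyp4a family, microsomal enzymes that oxidise the far end of fatty acids and are classic PPARA targets, came first. Cyp4a10 lay at 8.14 to 8.52 (median 8.42) in the fasted mice and at 1.17 to 2.36 (median 1.87) in the glucose mice. The groups were far apart, and the difference of 6.59 ± 0.42 (SE) is a 96.0-fold higher level (adjusted p = 1.74e-11). Cyp4a14 was 87.1-fold and Cyp4a31 52.7-fold higher. These neighbours on chromosome 4 are close in sequence, so a probe of one may also bind transcripts of another.

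The metallothionein Mt2, a small protein that binds zinc and copper, lay at 5.82 to 9.80 (median 8.56) in the fasted mice and at 2.03 to 5.01 (median 2.72) in the glucose mice, 33.9-fold higher (adjusted p = 2.89e-07). Its neighbour Mt1 was higher by 4.14. Cidec, which fuses lipid droplets, lay at 3.38 to 6.54 (median 6.09) against 0.03 to 1.53 (median 0.51), a 33.4-fold difference (adjusted p = 1.53e-09). All fasted mice were above all glucose mice for these genes, although fasted replicate 2 was far below the other fasted mice for Cidec (difference 5.06, or 5.53 without it). Slc16a5, a monocarboxylate transporter, was 21.4-fold higher. Myom3, which encodes a sarcomere protein, was 23.4-fold higher.

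Tg, the thyroid prohormone gene, was well above background on 6 of 6 fasted arrays and on 0 of 6 glucose arrays. Its fasted values lay at -2.67 to -0.70 (median -1.33), at least 12.5-fold above the lowest level that the glucose arrays could measure. A like bound of at least 19.6-fold held for Gm29896. B930025P03Rik was higher by 5.44 and by 3.55 at its other probe. Gm10804 was higher by 4.85. For Pip5k1a, a lipid kinase, the brightest probe gave 4.42 and the lowest of its 3 probes -0.25, so the probes do not share a direction.

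Among the largest falls, Pnpla5, a patatin-like lipase, lay at 1.43 to 3.72 (median 3.37) in the glucose mice and was well above background on 0 of 6 fasted arrays, so it was at least 294.5-fold lower (adjusted p = 3.24e-12). Its other probe gave -3.94. Pnpla3, the related lipid droplet protein whose human variant is tied to fatty liver, lay at 0.84 to 3.12 (median 2.41) in the glucose and at -6.36 to -4.59 (median -5.83) in the fasted mice. It was lower (adjusted p = 3.74e-11), with -4.56 at the other probe, and since 1 of 6 fasted arrays was above background, the size of this fall was not measured. Both lipase genes separated the groups without overlap.

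Slc2a4, the insulin-responsive glucose carrier GLUT4 known from muscle and fat, fell from 1.28 to 2.56 (median 2.02) in the glucose mice to -3.72 to -2.39 (median -2.94) in the fasted mice (adjusted p = 4.13e-12), with -3.02 at its other probe. Thrsp, a lipogenic nuclear protein, was 27.1-fold lower. Psat1, of serine synthesis, was 26.5-fold lower.

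Bhlha15, the secretory cell transcription factor MIST1, was above background on 6 of 6 glucose arrays and 0 of 6 fasted arrays, and was at least 51.5-fold lower. Chrna4, a nicotinic receptor subunit, was at least 14.6-fold lower on the same basis. Of the Serpina protease inhibitor family, Serpina4-ps1 was 67.6-fold and Serpina9 30.0-fold lower, while Serpina12, known as vaspin, was lower (adjusted p = 5.05e-13) with 1 of 6 fasted arrays above background, too few to give a size. Hsd3b5, a steroid enzyme of male mouse liver, lay at 5.76 to 6.20 (median 6.01) in the glucose mice and at -1.51 to 2.44 (median 0.62) in the fasted mice. The fasted mice were the more scattered, yet all lay below the glucose mice (adjusted p = 4.12e-11).

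The water group shows which extreme moved. Fasting set 10211 genes apart from water, 42.6% of all genes, and glucose set 199 apart, 0.83% of all. Both contrasts share the water mice, so their values are given side by side. For Sdf2l1, whose product assists protein folding in the endoplasmic reticulum, the water mice lay at 3.68 to 5.01 (median 4.41), overlapping the glucose mice and far above all fasted mice, and the glucose minus water difference was -0.49 (adjusted p = 0.419). Cyp4a10 likewise differed by -0.89 between glucose and water, which was not called (adjusted p = 0.415).

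Other genes stood on opposite sides of the water mice in the 2 extremes. These were chosen for that pattern, and their levels are given as a description. Me1, the cytosolic malic enzyme that makes NADPH for fat synthesis, lay at 3.97 to 4.60 (median 4.17) in the fasted, 5.51 to 5.99 (median 5.73) in the water and 6.59 to 7.56 (median 7.05) in the glucose mice. The 3 groups did not overlap. Pnpla3 lay at -1.84 to 0.52 (median -0.01) in the water mice, 2.52 below the glucose mean. Slc2a4 was 1.60 above water in the glucose mice and -3.51 from it in the fasted mice. Bex2 and Cabp2 had the same order, with no fasted array well above background for either.

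In the reverse direction, Got1, the cytosolic aspartate aminotransferase that passes carbon and nitrogen between the malate shuttle, gluconeogenesis and the urea cycle, lay at 8.38 to 9.22 (median 8.92) in the fasted, 5.18 to 6.41 (median 5.56) in the water and 4.64 to 5.15 (median 4.65) in the glucose mice. The lowest water value was just above the highest glucose value, and the fasted mice were far above both. Agxt, which detoxifies glyoxylate to glycine, lay at 7.46 to 8.06 (median 7.92), 6.49 to 7.02 (median 6.85) and 5.23 to 6.08 (median 5.52) in the same order. Slco1a4, an organic anion carrier, was 2.40 above water when fasted and -1.29 from it with glucose, and Nnmt, nicotinamide methyltransferase, 1.93 and -1.24. Cabp4 and A730036I17Rik were also named, under a rule that names at most 6 genes of each kind.

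Fgf21, the hepatokine known for its rise both in fasting and after sugar, was high in both extremes. It lay at -0.10 to 2.76 (median 2.12) in the fasted mice, at 0.41 to 2.56 (median 1.43) in the glucose mice and at -3.87 to -2.07 (median -2.62) in the water mice. Fasted and glucose mice overlapped over most of their range, and their difference of 0.23 ± 0.50 (SE) was not called (adjusted p = 0.755), with a 95% interval of -0.82 to 1.27. That interval still allows more than a 2-fold difference upward. Atf5 stood 1.28 and 1.16 above water in the fasted and glucose mice, and Cyp39a1, an oxysterol hydroxylase, 0.64 and 1.01. Fut1 and Prkca shared this pattern without a call between the extremes (Fut1 at -0.74, or -0.39 without fasted replicate 2), and Maff did so with the fasted mice 0.76 higher. Genes below water in both extremes included Cyp1a2, a caffeine-metabolising P450, at -1.82 when fasted and -0.56 with glucose. Dct, Fam228a, Aox3, Selenbp1 and Ddc were the others named.

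**Figure D2:**
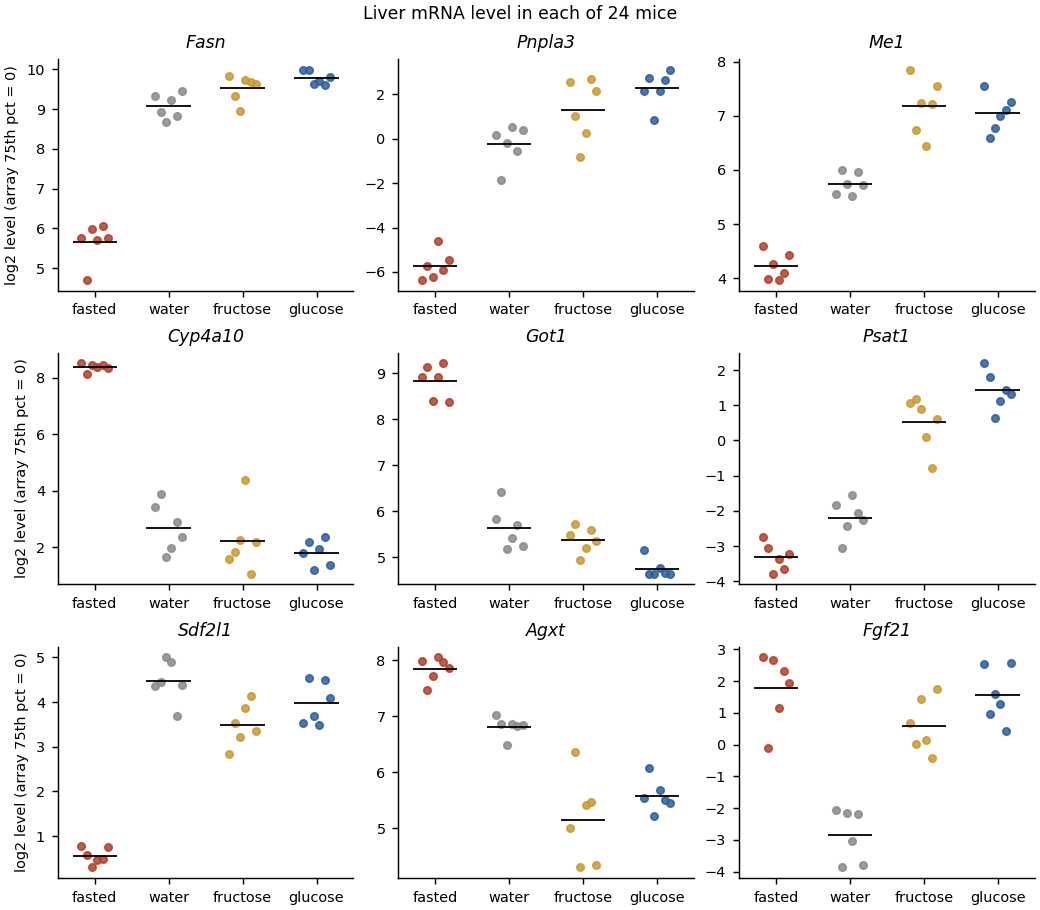
Each point is the log2 level in the liver of 1 mouse, relative to the array's 75th percentile, for 9 genes, and black lines are group means over 6 mice. In Cyp4a10 and Sdf2l1 only the fasted mice stand apart, and in Fasn they lie far below all fed mice. The water mean lies between the fasted and glucose means in Fasn, Me1, Pnpla3, Psat1, Got1 and Agxt, although water and fasted mice overlap in Psat1. Fgf21 is high in both extremes, at medians of 2.12 and 1.43.

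The lists of genes named below describe pathways by how many measured members were called in each direction. The counts stand against a background of 22.6% higher and 21.9% lower, and counts of members without overlap against 25.8% of all genes. No list-wide test was run.

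**Figure D3:**
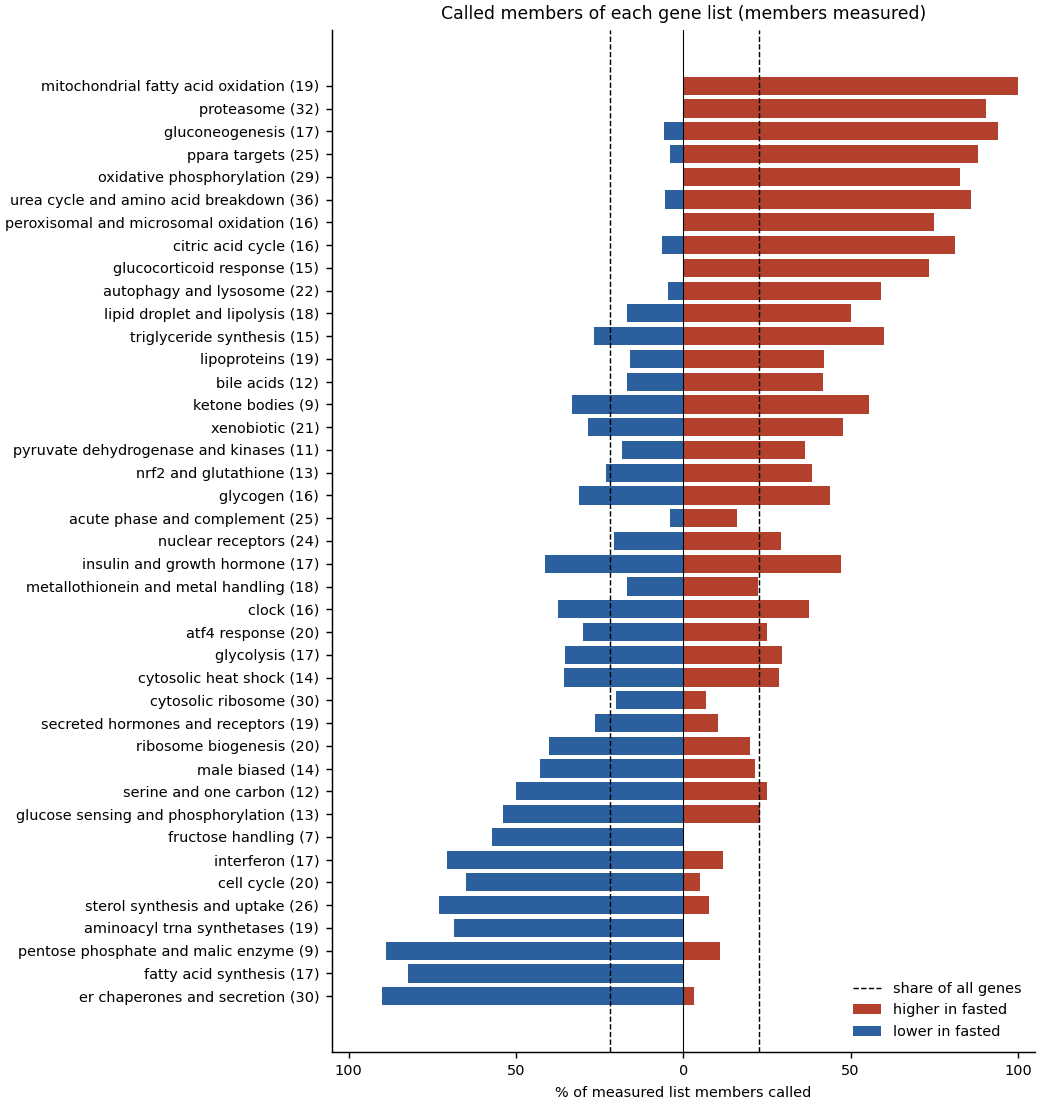
Bars show the percentage of each gene list's measured members called higher (red, to the right) or lower (blue, to the left) in the fasted than in the glucose mice, with the number measured in brackets and dashed lines at the shares of all genes, 22.6% and 21.9%. Mitochondrial fatty acid oxidation, the proteasome and gluconeogenesis lie at the top, and ER chaperones and fatty acid synthesis at the bottom.

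In sugar sensing and entry, 3 of 13 genes were higher in the fasted mice and 7 lower. The genes for the carrier GLUT2, Slc2a2 (95% interval -1.22 to -0.79), and for ChREBP, Mlxipl (-1.75), were lower. The other probes of Mlxipl reached -0.10. Txnip, a brake on glucose uptake that ChREBP and its relatives induce, was instead higher by 1.51 ± 0.17 (SE) (adjusted p = 1.61e-07), as was its relative Arrdc4 by 1.21. The broadly expressed carrier GLUT1, Slc2a1, was higher by 1.43.

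Glycolysis as a list was split, with 5 of 17 higher, 6 lower and a median of -0.03. Pklr, the liver pyruvate kinase that ends glycolysis, lay at -1.63 to -0.48 (median -1.01) in the fasted and 2.63 to 3.34 (median 2.96) in the glucose mice, a difference of -4.00 ± 0.18 (SE) without overlap (adjusted p = 9.34e-14). Pfkfb3, which makes the activator of phosphofructokinase, differed by -2.08, Gpi1 by -1.17 and Pfkl by -0.61. Among enzymes of reversible steps that gluconeogenesis shares, Aldoa was higher by 0.82, Tpi1 by 0.51 and Pgk1 by 0.31, while Gpi1 is one of the falls above and Gapdh, at -0.03, was not called. Pklr and Gpi1 were also higher with glucose than with water, by 0.98 and 0.83.

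Fructose handling had 4 of 7 genes lower and none higher, led by triokinase, Tkfc (-2.14), and ketohexokinase, Khk (-1.52). In the pentose phosphate pathway with malic enzyme, which supplies NADPH, 8 of 9 genes were lower. Beside Me1 these included Rpia (-1.86), Tkt (-1.77) and Pgd (-1.60). For Tkt and Pgd the other probe gave -0.14 and 0.51, which for Pgd is the opposite direction. G6pdx, the entry enzyme, was lower, at -0.96.

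Of 16 glycogen genes 7 were higher and 5 lower. Of the targeting subunits that bring protein phosphatase 1 to glycogen, Ppp1r3g lay at 0.77 to 4.81 (median 2.10) in the fasted and -2.54 to 0.29 (median -0.57) in the glucose mice (9.64-fold higher, adjusted p = 1.02e-04). Ppp1r3c was higher by 1.01 and Ppp1r3b by 0.99, while Ppp1r3d, at 0.03, was not called. Glycogenin, Gyg, which primes the polymer, was higher by 0.44, Pgm1 by 0.46, and the phosphorylase kinase subunits Phka2 and Phkg2 by 0.48 and 0.21. Lower members included the phosphorylase Pygl at -1.45, the branching enzyme Gbe1 at -1.43 and Ugp2 at -0.99. The synthase Gys2, at 0.16, was not called.

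Gluconeogenesis was higher almost throughout, in 16 of 17 genes, with a median of 0.84. After Got1 came Sds, serine dehydratase (2.63), and Ppargc1a, the coactivator PGC-1 alpha (2.43). Pck1, which makes phosphoenolpyruvate in the cytosol, lay at 9.21 to 9.47 (median 9.34) in the fasted and 6.74 to 8.20 (median 7.53) in the glucose mice, with no overlap (difference 1.83 ± 0.20 (SE), adjusted p = 1.22e-07). The closing phosphatase G6pc was 2.15-fold higher, Pcx higher by 0.70 and Fbp1 by 0.26. Pck2, the mitochondrial isoform, was the exception at -0.74, and it was 0.90 higher with glucose than with water.

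At the entry to the citric acid cycle, Pdk4, the kinase that shuts pyruvate dehydrogenase, lay at 0.89 to 2.36 (median 2.00) against -1.25 to 0.46 (median -0.70), 4.89-fold higher (adjusted p = 6.77e-06). Pdk2 was higher by 0.63 and the opposing phosphatase Pdp2 by 1.50, while Pdk1 (-0.65, or -0.04 as the median of its probes) and the enzyme subunit Pdhb (-0.90) were lower. Of the cycle itself 13 of 16 genes were higher, among them Fh1 (1.52) and Dlst (1.02, or 1.14 without fasted replicate 2). Citrate synthase, Cs, was lower, at -0.50. Oxidative phosphorylation subunits were higher by small amounts, 24 of 29 with a median of 0.27, with Ndufs3 at 0.44. Without fasted replicate 2, 26 were higher, with Ndufs3 at 0.51. The count depended on the scaling, since quantile normalization gave 8 higher and 2 lower. Against water, 10 of the 29 were higher in the fasted mice and 1 lower, where 42.6% of all genes were called either way. The list was thus not called more often than all genes in that contrast.

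Fatty acid synthesis had the lowest median of the 54 lists. Of 17 genes 14 were lower and none higher, with a median of -2.83. Fasn, the fatty acid synthase, lay at 4.70 to 6.06 (median 5.75) in the fasted and 9.60 to 9.99 (median 9.75) in the glucose mice, a 17.5-fold difference with no overlap (adjusted p = 1.42e-13). Srebf1, the gene of SREBP-1, was lower, at -3.95 ± 0.21 (SE), the elongase Elovl6 at -4.63 ± 0.26 (SE), and Acly, which splits citrate into acetyl-CoA, at -3.18 ± 0.18 (SE). Without fasted replicate 2, Fasn was at -3.94 in place of -4.13 and Elovl6 at -4.42, and 14 genes of the list were lower and 2 higher. Both acetyl-CoA carboxylases fell, Acaca by 3.28 and Acacb by 1.77, and the desaturase Scd1 fell by 1.72. Elovl5, Fads2 and Nr1h3, the gene of LXR alpha, were not called, at 0.48, 0.29 and 0.07. Glucose was above water in 4 of the 17, Pnpla3, Me1, Acly and Acaca, against 0.83% of all genes called either way. Pnpla3 and Me1 are among the genes described above as chosen for their place against water.

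Of 15 genes of triglyceride assembly 9 were higher and 4 lower. Gpat3, a glycerol phosphate acyltransferase, lay at 2.59 to 3.55 (median 3.39) against -0.59 to 0.51 (median 0.21) and was 9.03-fold higher (adjusted p = 3.41e-10; log2 difference 3.17, or 3.31 without fasted replicate 2), and Mogat1 (1.79), Lpin2 (1.20) and Dgat1 (0.97) were higher too. Their counterparts Gpam (-0.81), Mogat2 (-1.46) and Dgat2 (-0.48) were lower, so the Gpat, Mogat and Dgat enzymes each held a higher and a lower member.

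Sterol synthesis and uptake, the programme of SREBP-2, had 19 of 26 genes lower, with a median of -1.29. Sqle, squalene epoxidase, lay at 0.34 to 4.09 (median 0.85) in the fasted and 4.43 to 5.60 (median 4.81) in the glucose mice (difference -3.47 ± 0.45 (SE), adjusted p = 1.11e-06). Of the other synthesis enzymes Mvd was lower, at -3.69, and Fdps at -3.50. Fasted replicate 5 was far above the other fasted mice for Sqle, at 4.09 against 1.58 in the next, and for Fdps, at 5.16 against 3.82. Srebf2 itself, at -0.06, was not called. Insig2, an ER anchor that retains the SREBP complex and is known to rise in fasting, was higher by 3.25, whereas its relative Insig1 was lower, at -2.41. The Insig pair was singled out after its values were seen.

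Bile acid genes were mixed, with 5 of 12 higher and 2 lower. Cyp8b1, the 12-alpha-hydroxylase that sets the share of cholic acid, lay at 3.58 to 4.65 (median 4.37) in the fasted and 0.78 to 1.83 (median 1.61) in the glucose mice (6.92-fold higher, adjusted p = 1.55e-09; log2 difference 2.79, or 2.93 without fasted replicate 2). Cyp7a1, the rate-limiting enzyme, was lower, at -1.56 ± 0.37 (SE) (adjusted p = 0.0012), and the bile salt pump Abcb11 at -0.93.

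Mitochondrial fatty acid oxidation was higher in all 19 measured genes, with a median of 0.94, and the groups did not overlap in 17 of them. The order of the pathway runs from the carnitine carrier Slc22a5 (2.46) and the gatekeeper Cpt1a through Slc25a20 (1.37) and Cpt2 (1.12) to the dehydrogenases Acadm (1.44), Acadl (1.19) and Acadvl (0.59). Cpt1a lay at 7.07 to 7.61 (median 7.50) in the fasted and 5.52 to 5.75 (median 5.63) in the glucose mice (difference 1.80 ± 0.09 (SE), adjusted p = 2.33e-13). Peroxisomal and microsomal oxidation had 12 of 16 higher, with Ehhadh at 2.63 and Crot at 1.60. Catalase, Cat, at 0.09, was not called, nor were the male-biased Cyp4a12a and Cyp4a12b, at 0.07 and -0.02, beside the large rises of Cyp4a10, Cyp4a14 and Cyp4a31. Without fasted replicate 2, 19 mitochondrial and 13 peroxisomal and microsomal genes were higher.

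Of 25 known PPARA targets, 22 were higher and 1 lower, with a median of 1.32. This list shares members with the oxidation lists above, among them Cyp4a10, Cyp4a14 and Cyp4a31. The thioesterases Acot1 (2.77) and Acot2 (2.73), near-identical neighbours whose probes may cross-react, and Angptl4 (1.91) were among them, and Ppara itself was higher by 0.65. Fgf21 and Acot3 were not called, and Fabp1, the abundant fatty acid binding protein, was lower, at -0.17. In ketone metabolism 5 of 9 genes were higher and 3 lower. Acat1, the mitochondrial thiolase that joins acetyl-CoA, was higher by 0.88 ± 0.17 (SE) (adjusted p = 1.71e-04), or by 1.09 without fasted replicate 2. Bdh1 was not called, at -0.04, and the transporter Slc16a6 was lower, at -1.46.

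Lipid droplet and lipolysis genes were higher in 9 of 18 and lower in 3. After Cidec came the coat protein Plin4 (2.58), the triglyceride lipase ATGL, Pnpla2 (2.49), and Plin5 (2.12). Abhd5, the ATGL coactivator, was lower, at -0.63, and Pnpla3 and Pnpla5 are the other falls. Of 7 adipocyte markers 4 were higher, Adipoq, Lipe, Retn and Fabp4, and their mean level was -2.14 to -0.83 in the fasted against -2.21 to -1.72 in the glucose mice. Adipoq, the defining marker, was well above background on 6 of 6 fasted and 0 of 6 glucose arrays and was at least 2.12-fold higher, while Lep, at -0.02, Plin1 and Cfd were not called. The part of this in the droplet genes was not tested.

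Among lipoprotein genes 8 of 19 were higher and 3 lower. Angptl8, the insulin-induced inhibitor of lipoprotein lipase, lay at 2.54 to 3.54 (median 3.04) in the fasted and 6.21 to 7.48 (median 7.11) in the glucose mice, 15.4-fold lower with no overlap (adjusted p = 3.09e-09). Its fasting counterpart Angptl4 was higher, as given above. Apoa4, which rises with liver fat, was higher by 2.04 ± 0.22 (SE) (adjusted p = 1.01e-07), or by 2.31 without fasted replicate 2, and Apob and Apoe, at 0.08 and 0.06, were not called. Apoa1 was called higher by 0.23, a direction that turned under quantile normalization.

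Amino acid breakdown and the urea cycle had 31 of 36 genes higher and 2 lower, with a median of 1.19 and no overlap in 32. Cth, which ends the conversion of methionine sulphur to cysteine, was higher by 2.85 ± 0.17 (SE) (adjusted p = 6.76e-12), the lysine enzyme Aass by 2.54, and Oat and Tat by 2.21 and 1.79. Without fasted replicate 2, Oat was higher by 2.31. In the urea cycle Cps1 was higher by 1.60, Ass1 with a 95% interval of 0.94 to 1.25, Asl by 2.00 and Arg1 by 1.19, while Otc, on the X chromosome, was not called at -0.09. Glul, glutamine synthetase, was lower, at -0.54. Part of this distance lay on the glucose side, since 10 of the 36 were lower with glucose than with water, against 0.83% of all genes called either way, among them Agxt (-1.23), Sds (-0.76) and Hpd (-0.63).

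Of 12 serine and one-carbon genes 6 were lower in the fasted mice, 3 higher and 3 not called, with a median of -0.28. Psat1 lay at -3.79 to -2.73 (median -3.30) in the fasted, -3.06 to -1.55 (median -2.17) in the water and 0.64 to 2.19 (median 1.38) in the glucose mice, and Phgdh, the first enzyme of serine synthesis, at -3.72 to -3.08 (median -3.42), -2.98 to -2.13 (median -2.75) and -0.30 to 2.13 (median 0.49). In both genes the glucose mice lay above all fasted and water mice. The fasted minus glucose difference was -4.05 ± 0.35 (SE) for Phgdh (adjusted p = 2.77e-09). Psph, which completes serine, was lower, at -1.66, as was the mitochondrial folate enzyme Mthfd2, at -2.35. Its neighbour in that pathway, Aldh1l2, was at least 3.79-fold lower, with 0 of 6 fasted arrays above background. These 5 were also the 5 list members higher with glucose than with water, against 0.83% of all genes called either way. The cytosolic Mthfd1 was higher by 0.35 in the fasted mice, and both serine hydroxymethyltransferases, Shmt1 and Shmt2, were not called, at 0.05 and -0.04.

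ATF4, the transcription factor of the amino acid response, has known targets in serine synthesis, tRNA charging and stress control. Of 20 genes 5 were higher and 6 lower in the fasted than in the glucose mice, near the shares of all genes. Against water, 9 were higher and 2 lower in the fasted mice, and 3 were higher and 0 lower with glucose. Of all genes, 42.6% were called in the former contrast and 0.83% in the latter. The list mean lay at 1.75 to 2.17 in the fasted, 1.62 to 2.25 in the glucose and 1.17 to 1.43 in the water mice. Between fasted and glucose mice, Ddit4, an inhibitor of mTORC1, was higher by 2.46 ± 0.45 (SE) (adjusted p = 9.88e-05), and Trib3, a pseudokinase, by 1.68 ± 0.21 (SE) (adjusted p = 9.40e-07; 1.55 without fasted replicate 2). Nupr1 was lower, at -2.17 ± 0.21 (SE) (adjusted p = 1.45e-08), though its other probe gave 0.58, and Chac1, which degrades glutathione, was lower, at -1.56. Atf4 fell by 0.46 and Ddit3, the gene of CHOP, by 0.99, and Asns, asparagine synthetase, was not called at 0.46 ± 0.43 (SE). Aminoacyl-tRNA synthetases, which load amino acids on tRNA, were lower in 13 of 19 and higher in none, with Cars at -1.26, Wars at -0.79 and a median of -0.29.

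Promoters of these genes were searched for the amino acid response element, the composite site for ATF4 with C/EBP proteins, spelled TGATGNAA, on both strands. Promoter sequences are those of RefSeq on GRCm38.p6, from 250 bases before to 50 bases after the start, and 18 genes of the ATF4 list, 12 synthetases and 10 serine and one-carbon genes had one. The letters were present in 7 of 18 (38.9%), in 5 of 12 (41.7%) and in 0 of 10, against 3.35% of all measured genes with a promoter. Of the genes that carry them, only Trib3 was called higher in the fasted mice. Chac1, Nupr1, Atf3 (-0.90) and Gars (-0.27) were lower, as was Yars, at -0.76, -0.36 and -0.91 in slides 1, 2 and 3. Fgf21, Asns and Vldlr were not called, and no synthetase was called higher. Matches before the start are shown for 5 of these genes as examples of the element, and the match of Trib3 lies after its start and is not shown. Sequences run on the gene's strand, 10 bases on each side of the match, with its fixed letters in capitals, on the reverse strand in all but Asns.
Fgf21: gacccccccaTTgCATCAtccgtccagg
Asns: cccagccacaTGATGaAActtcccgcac
Chac1: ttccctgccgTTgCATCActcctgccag
Nupr1: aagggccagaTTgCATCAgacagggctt
Gars: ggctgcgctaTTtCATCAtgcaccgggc
These windows lie at chr7:45615612-45615639, chr6:7693215-7693242 and chr7:126625563-126625590 for genes on the minus strand and at chr2:119351039-119351066 and chr6:55037961-55037988 for genes on the plus strand. A match is a string of letters, not a measured binding site. Motifs of other factors were searched in the same way. The DR1 element of PPARA was in 0 of 18 PPARA targets with a promoter, against 0.712% of measured genes. The sterol response element was in 1 of 18 sterol genes and 0 of 15 fatty acid synthesis genes, against 0.697%. The metal response element was in 64.3% of metal handling genes, against 61.0%. The E-box was in 25.0% of sugar sensing, 17.6% of glycolysis and 30.8% of clock genes, against 10.4%.

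The endoplasmic reticulum, where secreted proteins fold, gave the largest share of lower members of the 54 lists described. Of 30 genes 27 were lower in the fasted mice, 1 was higher (Os9, 0.20) and 2 were not called, with a median of -1.09 and no overlap in 26. Sdf2l1, a partner of the chaperone BiP, lay at 0.30 to 0.77 (median 0.53) in the fasted and 3.48 to 4.53 (median 3.89) in the glucose mice, 10.6-fold lower (adjusted p = 4.53e-11). Derl3, which helps pull misfolded proteins out for degradation, lay at -1.53 to -0.14 (median -0.63) against 1.58 to 3.73 (median 2.51) (difference -3.45 ± 0.51 (SE), adjusted p = 6.46e-06). Manf was lower, at -2.66, Creld2 at -2.37, and the chaperone BiP itself, Hspa5, at -1.28. All 3 sensors of unfolded protein were measured, and Ern1 (-1.32) and Eif2ak3 (-1.21) were lower while Atf6, at 0.05, was not called. Glucose and water mice did not differ by the test in any of these genes, and 28 were lower in fasted than in water mice. Of all genes, 42.6% were called either way between fasted and water mice.

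The ER stress element, a CCAAT box followed after 9 bases by CCACG, is bound by NF-Y together with ATF6. Of the 30 genes 25 had a RefSeq promoter, and 9 of these (36.0%) held the exact element on either strand, against 0.167% of measured genes, 0.411% of those called lower and 0.0879% of those called higher. The list was not taken out of these shares, and its 9 genes with the element, all lower in the fasted mice, add to the share of those called lower. A CCAAT box alone, which is part of the element, was present in 84.0% against 42.2%. The unfolded protein response element of XBP1 was present in 36.0% of the 25 genes, against 12.1%. The promoter of Hspa5, the textbook gene of this response, is printed for the 250 bases before its start, on the plus strand at chr2:34771840-34772089 of GRCm38.p6, with both fixed parts of the exact element in capitals.
Hspa5 promoter: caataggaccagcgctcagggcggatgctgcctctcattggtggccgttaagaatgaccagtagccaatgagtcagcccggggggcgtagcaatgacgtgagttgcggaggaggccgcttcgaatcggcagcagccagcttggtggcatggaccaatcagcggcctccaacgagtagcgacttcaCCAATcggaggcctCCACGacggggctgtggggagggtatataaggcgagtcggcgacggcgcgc
The same element in the other genes, with 10 bases on each side and the fixed parts in capitals, reads as follows on each gene's strand. Hsp90b1 holds 2 and the upstream one is shown.
Derl3: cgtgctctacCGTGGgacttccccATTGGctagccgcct
Creld2: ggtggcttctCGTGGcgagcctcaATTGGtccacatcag
Pdia6: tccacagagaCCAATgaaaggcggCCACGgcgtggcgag
Syvn1: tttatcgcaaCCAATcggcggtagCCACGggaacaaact
Calr: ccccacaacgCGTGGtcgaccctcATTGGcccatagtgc
Dnajc3: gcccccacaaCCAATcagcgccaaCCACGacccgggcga
Canx: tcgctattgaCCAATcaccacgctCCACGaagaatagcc
Hsp90b1: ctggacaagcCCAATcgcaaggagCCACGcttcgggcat
Windows lie at chr10:75893232-75893270, chr15:88819510-88819548, chr12:17266481-17266519, chr19:6046522-6046560 and chr14:118937817-118937855 for genes on the plus strand and at chr8:84847065-84847103, chr11:50325790-50325828 and chr10:86705628-86705666 for genes on the minus strand. Where the capitals read CGTGG and ATTGG the element lies on the opposite strand, as in Derl3, Creld2 and Calr. The 9 genes were named for the element, and their differences ran from -3.45 for Derl3 and -2.37 for Creld2 over -1.88 for Pdia6, -1.38 for Syvn1 and -1.01 for Calr to -0.95 for Dnajc3, -0.85 for Canx and -0.66 for Hsp90b1. All 9 were lower in the fasted mice, as were members without a match, such as Sdf2l1, Manf and P4hb (-0.43).

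**Figure D4:**
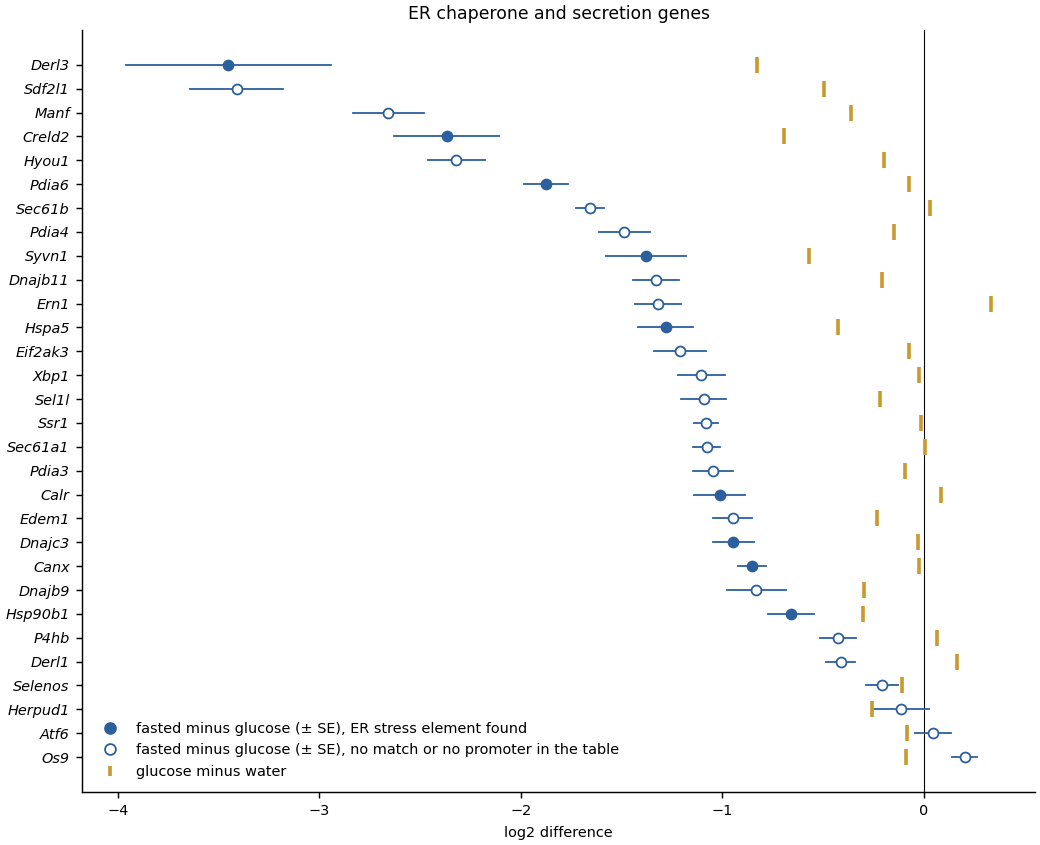
Circles are log2 differences, fasted minus glucose, with SE bars for 30 ER chaperone and secretion genes, filled where the promoter holds the exact ER stress element, and gold ticks are glucose minus water for the same genes. Filled circles spread from Derl3 at -3.45 to Hsp90b1 at -0.66, and the gold ticks lie nearer 0 for most genes.

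Of 14 heat shock genes of the cytosol and mitochondria 4 were higher and 5 lower. Mitochondrial Hspd1 (0.47) and Hspa9 (0.43) were higher, and the inducible Hsp90aa1 (-0.81) lower. Hspa1a was called lower, at -1.16, and lost the call without fasted replicate 2, 4, 5 or 6 or without glucose replicate 1, 2, 5 or 6 (adjusted p up to 0.113). Proteasome genes were higher in 29 of 32 and lower in none, with a median of 0.43, and 31 were higher without fasted replicate 2. Psmd4, a ubiquitin receptor of the proteasome cap, lay at 6.91 to 7.34 (median 7.17) in the fasted and 6.29 to 6.52 (median 6.41) in the glucose mice (adjusted p = 5.79e-09). Autophagy and lysosome genes were higher in 13 of 22, with the protease Ctsl at 1.51, Gabarapl1 at 1.23 and Map1lc3b, the gene of LC3B, at 1.06, and lower for the lysosomal lipase Lipa (-0.49).

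Ribosomal protein genes hardly differed under the scaling used, with 2 of 30 higher, 6 lower and all differences between -0.21 (Rpl3) and 0.21 (Rps9). Quantile normalization called 28 lower and none higher, so the direction of this family rests on the scaling. For Rps9 the 4 probes ran from -0.19 to 1.03. Ribosome biogenesis genes were lower in 8 of 20, with Nolc1 at -0.57 and Nop56 at -0.57, and higher in 4.

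**Figure D5:**
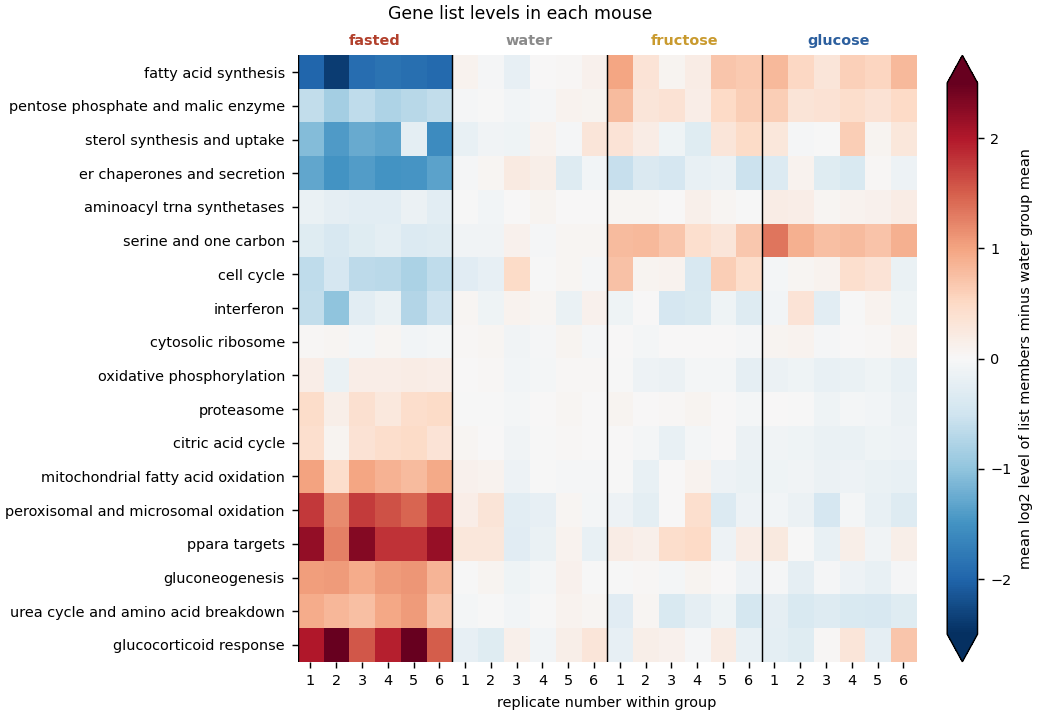
Colours show the mean log2 level of the members of 18 gene lists in each of 24 mice, minus the mean of the water group, with columns ordered by group and replicate number. Fatty acid synthesis is lowest and PPARA targets are among the highest in the fasted mice, fasted replicate 2 is paler than its group in the oxidation lists, and fasted replicate 5 is paler in sterol synthesis.

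Of 17 insulin and growth hormone genes 8 were higher and 7 lower. Igfbp1, an IGF binding protein, lay at 7.64 to 9.82 (median 8.52) in the fasted and 3.51 to 6.71 (median 5.26) in the glucose mice, 11.3-fold higher with no overlap (adjusted p = 2.09e-06), and Irs2 was higher by 2.29 ± 0.27 (SE) and Igfbp2 by 1.75. The growth hormone targets Cish and Socs2 were lower, at -2.46 ± 0.61 (SE) and -2.33 ± 0.52 (SE), and Igfals at -0.72, while Igf1 was higher by 0.37, or by 0.01 with no call as the median of its probes. Glucocorticoid response genes were higher in 11 of 15 and lower in none, with a median of 1.55. Beside the metallothioneins these were Sult1e1 (4.05), the cell cycle inhibitor Cdkn1a (3.64) and Fkbp5 (1.55). Per1 and Dusp1, at 0.09 and 0.00, were not called, and the receptor gene Nr3c1 was lower, at -0.59.

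Among secreted factors the activin subunits parted. Inhba lay at -1.81 to -0.63 (median -1.06) in the fasted and 2.38 to 3.19 (median 2.69) in the glucose mice, 14.9-fold lower (adjusted p = 1.52e-11), and Inhbb at -0.30 to 0.91 (median 0.53) against -2.59 to -1.71 (median -2.49), 7.08-fold higher (adjusted p = 3.41e-11). Neither pair of groups overlapped. Inhbc was lower, at -1.33, and Inhbe, at -0.04, was not called. Nuclear receptors gave 7 of 24 higher and 5 lower, near the background, with the xenobiotic sensors Nr1i3 (0.93) and Nr1i2 (0.91) highest and Pparg (-0.81) lowest.

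At the single time of ZT16, 6 of 16 clock genes were higher and 6 lower. Arntl, the gene of BMAL1, was higher by 1.68 ± 0.20 (SE) (adjusted p = 2.85e-07), Clock by 0.94 and Ciart by 1.70. Per2, Per3 and Dbp, which BMAL1 and CLOCK drive, were lower, at -1.33, -1.34 and -1.16, and Bhlhe40 at -1.49. Phase and level cannot be told apart at a single time. Of 14 male-biased liver genes 6 were lower and 3 higher, with Nudt7 at -2.13 and Elovl3 at 2.07 beside Hsd3b5 and Serpina12.

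Detoxification genes were higher in 10 of 21 and lower in 6. Cyp2b10, the classic CAR target, lay at 2.46 to 4.20 (median 3.12) in the fasted and -1.68 to 0.21 (median -0.92) in the glucose mice, 16.3-fold higher (adjusted p = 5.69e-08), and its relative Cyp2b9, whose probe may share transcripts with it, was 15.0-fold higher. Por, the electron donor of P450 enzymes, was higher by 1.90 and Cyp3a11 by 1.46, and Cyp2c55 was lower, at -1.48. Of NRF2 and glutathione genes 5 of 13 were higher, Nqo1 by 1.00, and 3 lower, Gclc, the rate-limiting enzyme of glutathione synthesis, at -0.76. In metal handling, outside the metallothioneins, Hfe and Tfr2 were higher by 0.49 and 0.49, Tfrc, Slc40a1 and the manganese exporter Slc30a10 were lower, at -0.68, -0.50 and -1.57, and Hamp, hepcidin, was not called at 0.17.

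Interferon-induced genes were lower in 12 of 17 and higher in 2, with a median of -0.59. Cxcl10 lay at -2.07 to -0.53 (median -1.04) in the fasted and -0.44 to 0.60 (median -0.01) in the glucose mice (difference -1.24 ± 0.22 (SE), adjusted p = 5.30e-05), and Oasl1, Ifi44 and Stat2 were lower, at -1.03, -1.02 and -0.99. Rsad2 and Usp18 went the other way, at 0.70 and 0.49. The groups overlapped in most of the list, with no overlap in 5 of 17, near the 25.8% of all genes. Acute phase and complement genes differed little, with 4 of 25 higher and 1 lower, and Serpina3n at 1.62.

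Cell cycle genes were lower in 13 of 20, with a median of -0.90. Ccnd1, cyclin D1, lay at -0.13 to 0.55 (median 0.23) in the fasted and 2.27 to 2.49 (median 2.42) in the glucose mice (difference -2.19 ± 0.18 (SE), adjusted p = 6.68e-10). The replication helicase subunit Mcm5 was lower, at -2.06 ± 0.45 (SE), Ccne1 at -1.70, and the proliferation marker Mki67 at -0.73. The only higher member was the inhibitor Cdkn1a, and Pcna, at -0.10, was not called.

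Liver lobules differ between the portal and the central end, and the markers of both ends were counted. Of 10 periportal markers 9 were higher in the fasted mice, and Cyp2f2, at -0.15, was not called. Most of these are enzymes of the amino acid and gluconeogenesis lists, such as Hal (2.00) and Etnppl (1.98). Pericentral markers gave 3 of 10 higher, with Oat at 2.21, and 5 lower, with Lgr5, a receptor of Wnt signalling, at -1.60, Rgn at -1.14 and Glul at -0.54. Cyp2e1 was higher by 0.24. The pericentral list thus held called members in both directions.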

How the data were processed

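Total RNA of 24 livers, 1 mouse per array, was labelled with Cy3 and hybridised to 1-colour Agilent mouse arrays, per the labels' protocols. Per the file headers, Agilent Feature Extraction 10.10.1.1 made each deposited intensity (gProcessedSignal), background-subtracted within the array and not normalized between arrays. The authors' deposited series table holds log2 values whose normalization the labels do not state. The submitters' processing notes name limma. The probe coordinates are on mm9.

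Control spots and outlier spots were left out (46 missing gene values), spots of a probe were averaged as log2 intensity and the array's 75th percentile was subtracted. Probes well above background on at least 6 of 24 arrays were kept (36229 of 56605), and the brightest kept probe stood for a gene. Names came from a table of GRCm38.p6 (15655 genes by accession, 1736 by symbol, 103 by synonym) or the array itself (6472). A fold against a group with no array well above background is a lower bound, set against the dimmest level measurable on its arrays.

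Group means were fitted over all 24 arrays with limma 3.58.1 (lmFit, eBayes) in R 4.3.3, with Benjamini-Hochberg adjusted p under 0.05 over all genes within a contrast, after tests on simulated data. Slides (3, with 2 arrays of each group) were checked as a block and one by one. The number of arrays limits the precision. Named genes were the 12 largest rises and falls with non-overlapping groups, up to 4 members of each of 54 lists, a panel of 26 genes and 6 genes for each pattern against water, which gave 242. Not all are reported here, and further list members are given with their values. The members, lists and rules were chosen with earlier results of these data known.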

Additional observations from a re-analysis of the deposited data

Results flagged for a closer look

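In 40 of 472 combinations of a named gene and a group (8.47%), the highest or lowest of the 6 mice lay further from the other 5 than Dixon's 95% critical value allows, where chance gives about 1 in 20. Over all genes the same rule flagged 1844 of 23958 in the fasted group and 1548 of 23963 in the glucose group, so the named genes lay near the rate of all genes. Fasted replicate 2 gave 15 of the 40. It was the lowest fasted mouse for mitochondrial genes, with Dlst at 6.2727 (next 6.97), Suclg1 at 6.057 (next 6.49), Acat1 at 4.1802 (next 5.29), Ndufs3 at 6.9246 (next 7.28), Atp5b at 8.5892 (next 8.77) and Ndufs1 at 5.7968 (next 6.36). It was also the lowest for lipid genes, with Cidec at 3.3756 (next 5.57), Elovl6 at 0.7658 (next 1.79), Fasn at 4.702 (next 5.71), Apoa4 at 6.9371 (next 8.34) and Gpat3 at 2.5889 (next 3.27), so that synthesis genes such as Fasn and droplet genes such as Cidec were low in the same mouse. The remaining lowest values in this mouse were Cyp8b1 at 3.5769 (next 4.34), Oat at 8.1199 (next 8.59) and Fut1 at -4.5881 (next -2.79), and its Trib3, at 3.318, was the highest (next 2.66). Over all genes measured, this mouse was the array set off in 972 of 1844 cases in the fasted group, and the same mouse had the lowest mean level in 23 and the highest in 11 of the 54 gene lists.

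Fasted replicate 5 was set off for sterol synthesis, with Fdps at 5.1617 (next 3.82) and Sqle at 4.0901 (next 1.58), and in it both genes were the highest of the group. Fasted replicate 4 gave Cyp1a2 at 2.1802 (next 2.56), Inhbc at 1.5886 (next 2.05), Mthfd2 at -3.9867 (next -3.03), Tnni2 at -2.5197 (next -2.92) and Maff at -0.2668 (next 0.41). Fasted replicate 6 gave Fabp4 at 2.8037 (next 2.36) and Khk at 7.4658 (next 7.70), and fasted replicate 1 gave Ttr at 9.5919 (next 9.50) and Aox3 at 3.8407 (next 3.60).

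In the glucose group the cases were spread over 5 of the 6 mice. Replicate 1 gave Serpina4-ps1 at 2.7873 (next 4.42), Krt7 at -4.0283 (next -3.44), Got1 at 5.1523 (next 4.77), Gbe1 at 5.9912 (next 5.71) and Srxn1 at 4.1273 (next 3.83). Replicate 2 gave Dnajb1 at 5.6158 (next 5.13). Replicate 3 gave Cyp4a14 at -4.4393 (next -3.58), Pnpla5 at 1.4346 (next 3.08), Thrsp at 8.9194 (next 9.11) and Sds at 4.5724 (next 4.01), the lowest of the group for Cyp4a14, Pnpla5 and Thrsp and the highest for Sds. Replicate 4 gave Pparg at 3.0988 (next 2.42) and Cyp1a2 at 3.4877 (next 3.77). Replicate 6 gave Inhbb at -1.7074 (next -2.41) and Nnmt at 4.6949 (next 5.87). Without the mouse concerned, the genes named here kept their direction, and Dnajb1 alone lost its call, at -0.38 without glucose replicate 2.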

How the results depend on the processing

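Over 24 other settings, 12 of which left out a mouse, 195 of the 218 named genes that were called kept their call and direction in all. Leaving out a mouse gave 5071 to 5557 genes higher and 4853 to 5234 lower in the fasted mice, 1025 to 1089 and 927 to 1015 at 2-fold or more, and 6351 to 7361 with no overlap. A replicate block gave 5431 higher and 5238 lower. Replicate numbers gave little sign of pairing the mice. Deviations of same-numbered fasted and glucose mice correlated at 0.0514 on average, against -0.0104 for other numbers, and 2 of 6 pairs lay over 0.1. For 3 of the 6 fasted mice the closest glucose mouse had the same number, and 6 pairs are too few to settle the question. Background correction by normexp left 634 genes higher and 464 lower at 2-fold or more, and the values in the authors' deposited series table left 687 higher and 604 lower. The share of called genes that were higher ran from 46.4% under quantile normalization to 52.2% under normexp. Directions turned for Rps9 (-0.0114), Rps14 (-0.0627) and Apoa1 (-0.0858) under quantile normalization, for Rps14 (-0.0682) and Apoa1 (-0.0508) in the series table, and for Pip5k1a (-0.2465) as the median of its probes. Over all called genes, 35 of 10686 turned under quantile normalization, 34 of 10659 in the series table and 277 of 10686 as the median over probes, and the cause was not tested. Of 108 counts over lists, 39 moved by over 1.5 times in some setting. Probes near background, such as those of Tg, Adipoq and Pnpla5 on the dim side, limit folds to bounds.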
